A study of Mus musculus with 24 samples.

Results

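Mitochondrial fatty acid oxidation was followed through 10 enzyme genes: Acadm, Acaa2, Cpt1a, Cpt2, Acadl, Acadvl, Acads, Hadha, Hadhb and Etfdh. The members were taken by gene symbol, each had 1 probe set on the array, and together they make up 10 of the 22180 genes tested. Affymetrix arrays measured total RNA of mouse naive CD4 T cells, isolated with magnetic beads and a flow cytometry sort, from Trim28-KO mice (KO) and from their wild-type littermates (WT). Cells were studied unstimulated (0 h) and 4, 24 and 72 h after stimulation with anti-CD3 bound to the plate and soluble anti-CD28, which gives 8 groups of 3 arrays: KO and WT at each of the 4 times. The age of the mice, the driver of the Trim28 deletion, the part of the gene removed and whether each array of a group came from its own animal are points on which the sources used here are silent. The p-values therefore measure only how far these arrays scatter, which may be technical in part.

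Long-chain fatty acids enter mitochondria as carnitine esters: CPT1A, on the outer membrane, makes the ester and is the step held back by malonyl-CoA, and CPT2, on the inner membrane, turns it back into acyl-CoA. Each turn of beta-oxidation then begins with an acyl-CoA dehydrogenase matched to chain length (ACADVL for very long, ACADL for long, ACADM for medium and ACADS for short chains). It goes on through hydration, a second oxidation and a thiolase cut. The electrons of the acyl-CoA dehydrogenase step pass through ETFDH to ubiquinone. The trifunctional protein, built from the HADHA and HADHB subunits, carries out the later steps for long chains, and ACAA2 is a thiolase of the mitochondrial matrix. In T cells, resting, memory and regulatory cells are known for their use of this pathway, whereas newly activated effector cells lean on glycolysis. TRIM28 silences chromatin as the partner of KRAB zinc finger proteins.

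The 250 bases before the transcript start of 9 of the 10 genes were read from RefSeq (GRCm38.p6), and that of Acaa2 was not used here. The windows shown are those of the 4 genes that were higher in KO than in WT cells at 4 h and have an entry. They are Acadm (chr3:153944644-153944893, minus strand), Cpt1a (chr19:3323051-3323300, plus strand), Acadl (chr1:66863310-66863559, minus strand) and Acads (chr5:115119347-115119596, minus strand). The window of Acadvl (chr11:70015429-70015678, minus strand), a gene that did not pass the test at any time, is shown for comparison. Capitals mark AGGTCA on either strand, the hexamer recognised by PPAR, ERR and related nuclear receptors.
Acadm: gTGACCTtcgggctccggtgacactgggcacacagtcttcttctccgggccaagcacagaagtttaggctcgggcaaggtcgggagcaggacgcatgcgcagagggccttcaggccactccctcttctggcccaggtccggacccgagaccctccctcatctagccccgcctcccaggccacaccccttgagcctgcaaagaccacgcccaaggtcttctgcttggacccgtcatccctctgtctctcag
Cpt1a: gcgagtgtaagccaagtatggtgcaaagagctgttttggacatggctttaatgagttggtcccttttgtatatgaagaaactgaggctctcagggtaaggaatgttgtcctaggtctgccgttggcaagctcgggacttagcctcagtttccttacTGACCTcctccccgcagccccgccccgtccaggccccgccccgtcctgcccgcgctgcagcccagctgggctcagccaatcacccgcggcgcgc
Acadl: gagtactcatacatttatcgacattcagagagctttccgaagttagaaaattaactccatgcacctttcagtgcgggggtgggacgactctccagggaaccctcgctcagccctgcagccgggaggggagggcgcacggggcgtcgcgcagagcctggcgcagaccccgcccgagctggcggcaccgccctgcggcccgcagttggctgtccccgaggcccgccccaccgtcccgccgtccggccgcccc
Acads: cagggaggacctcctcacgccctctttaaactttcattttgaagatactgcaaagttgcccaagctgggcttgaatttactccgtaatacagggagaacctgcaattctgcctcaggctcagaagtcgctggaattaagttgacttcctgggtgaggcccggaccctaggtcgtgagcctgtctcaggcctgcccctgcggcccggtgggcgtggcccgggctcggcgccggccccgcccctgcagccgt
Acadvl: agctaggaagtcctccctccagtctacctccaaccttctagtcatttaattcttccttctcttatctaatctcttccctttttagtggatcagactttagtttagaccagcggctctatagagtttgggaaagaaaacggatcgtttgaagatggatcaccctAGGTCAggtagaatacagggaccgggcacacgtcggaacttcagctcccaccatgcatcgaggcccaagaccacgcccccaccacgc
AGGTCA was found in the windows of Acadm (first base at -249 from the start), Cpt1a (-94) and Acadvl (-87), or 3 of 9, while 14.0% of all 32851 promoter windows of this length held it. The longer string TCAAGGTCA and the direct repeat of AGGTCA with 1 base between its copies, which both contain AGGTCA, were in 0 of the 9 windows, and in 0.387% and 0.0335% of all windows. The string GGGCGG, the core of a GC box, was in 6 of 9 windows (Acadl, Cpt2, Hadha, Hadhb, Acads and Cpt1a) and in 32.7% of all, and CACGTG, the E-box bound by MYC, was in 0 of 9 and in 6.02% of all. Both strands were searched without mismatch. The window of Cpt1a lies inside the gene's span (chr19:3322326-3385735), so its matches belong to a later transcript start of that gene. A match describes the letters only.

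Hadha and Hadhb lie head to head with their transcript starts 273 bases apart. Most of the stretch between the starts is shown because both genes are members and their levels moved apart after stimulation (given with their values). The Hadhb probe set was dim, at 3.31 to 4.98 on all arrays and close to the array medians. The window of Hadha is chr5:30154981-30155230, minus strand, and it holds 0 copies of AGGTCA.
Hadha: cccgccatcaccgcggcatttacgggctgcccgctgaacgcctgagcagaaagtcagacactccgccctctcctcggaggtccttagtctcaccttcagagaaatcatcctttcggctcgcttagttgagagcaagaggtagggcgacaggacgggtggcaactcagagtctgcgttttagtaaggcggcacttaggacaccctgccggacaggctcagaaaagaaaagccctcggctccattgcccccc

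The deposited values are log2 intensities made by the authors with RMA, and array medians lay between 3.59 and 3.76. Trim28 was lower in KO cells at every time, with differences of -2.62 at 0 h to -3.58 at 24 h on the log2 scale. The T cell genes Cd4, Cd3d, Cd3e and Cd3g had mean levels from 8.32 to 12.08 in all groups, whereas Cd8a lay between 3.07 and 3.39 and Cd8b1 between 5.78 and 6.45. Cd8b1 was lower in KO cells at 24 h (-0.41, limma adjusted p = 0.0191) and 72 h (-0.65, 0.000356). Of 9 CD4 T cell markers 0, 1, 4 and 3 were higher and 1, 1, 1 and 2 lower in KO cells at 0, 4, 24 and 72 h, among the lower ones Il7r at 72 h (-1.13, limma adjusted p = 0.00111). At 0 h the log2 of their summed signal was 13.88 to 13.91 in KO and 13.98 to 14.11 in WT arrays, so KO lay lower. KO and WT sums overlapped at 4, 24 and 72 h. Over all 4 times they were 13.47 to 13.91 in KO and 13.47 to 14.11 in WT arrays. Markers of other cells were present at low levels and differed between genotypes. Over 13 B cell markers the log2 of the summed signal at 0 h was 8.86 to 9.75 in KO and 7.95 to 9.15 in WT arrays (2 of 13 higher in KO, 0 lower), and 0, 3 and 1 of the 13 were higher at 4, 24 and 72 h. Over 19 myeloid markers it was 8.43 to 9.56 in KO and 8.10 to 8.44 in WT arrays (6 higher, 0 lower), and 4, 0 and 0 of the 19 were higher at 4, 24 and 72 h. At 4 h the sums were 8.41 to 9.16 in KO and 7.63 to 8.71 in WT arrays for B cells and 8.21 to 9.09 in KO and 7.91 to 8.33 in WT arrays for myeloid cells. At 24 h they were 8.20 to 9.15 in KO and 7.53 to 8.01 in WT arrays for B cells and 7.88 to 8.12 in KO and 7.84 to 7.87 in WT arrays for myeloid cells. At 72 h these sums were 8.11 to 8.88 in KO and 7.69 to 7.75 in WT for B cells. They were 7.62 to 7.79 in KO and 7.87 to 7.95 in WT for myeloid cells (1 of 19 lower). KO array 2 had the lowest sums of the KO arrays for B cells at every time, so values with it as the single KO array of each time are given where they bear on a result. Of 10 regulatory T cell markers 4, 5, 4 and 3 were higher in KO at 0, 4, 24 and 72 h, and 1 was lower at 4 h, and the log2 of their summed signal was 10.14 to 10.33 in KO and 9.67 to 9.78 in WT arrays at 0 h and 12.31 to 12.32 in KO and 12.07 to 12.19 in WT arrays at 72 h. Of 9 memory T cell markers 1, 2, 3 and 0 were higher and 0, 0, 4 and 2 lower in KO at the 4 times. The log2 of their summed signal was 9.50 to 9.60 in KO and 9.37 to 9.43 in WT arrays at 0 h. At 72 h it was 10.77 to 10.86 in KO and 10.92 to 11.07 in WT arrays. The sum of 5 natural killer markers was 5.47 to 5.60 in KO and 7.14 to 7.59 in WT arrays at 72 h. The 1 of the 5 called there was Eomes, a transcription factor that activated T cells express too, at 4.01 in KO and 7.17 in WT cells (-3.15, limma adjusted p = 1.29e-12). The part of these cells in the results on the enzymes was not tested. Arrays numbered 3 carried Y-linked RNA (Eif2s3y at 8.0 to 8.69, against 2.14 to 2.75 on arrays 1 and 2). Xist lay at 3.03 to 4.79 on arrays 3, against 9.61 to 10.29 on arrays 1 and 2. Each group thus held RNA of both sexes, so its arrays did not all come from 1 animal. In bulk RNA, fewer cells of a type and less RNA per cell cannot be told apart. Levels below are log2 values, differences are KO minus WT on the log2 scale given with their limma standard error (SE), and a difference counts as past the threshold at a Benjamini-Hochberg adjusted p under 0.05 over all 22180 genes.

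Acadm, the medium-chain dehydrogenase, was higher in KO cells at every time, and its lead was larger at each time after stimulation than before it. On arrays 1, 2 and 3 its level was 9.24, 9.14 and 9.08 in KO cells at 0 h, against 8.25, 8.29 and 8.41 in WT cells. At 4 h it was 9.55, 9.4 and 9.41 in KO cells, against 7.6, 7.69 and 7.67 in WT cells. The KO and WT arrays were already far apart at these times and did not overlap. At 24 h the level was 10.33, 10 and 10.15 in KO cells, against 8.4, 8.26 and 8.4 in WT cells. At 72 h it was 10.47, 10.42 and 10.51 in KO cells, against 8.12, 8.08 and 8.03 in WT cells. The lowest of the 12 KO arrays (9.08) lay above the highest of the 12 WT arrays (8.41). The differences were 0.84, 1.8, 1.81 and 2.39 (SE 0.07 each; limma adjusted p = 1.08e-08, 7.82e-15, 2.3e-15 and 5.07e-18), which are 1.78-, 3.49-, 3.5- and 5.24-fold. Among all genes ordered from the highest KO difference down, Acadm stood at place 153, 21, 25 and 11 at 0, 4, 24 and 72 h. With KO array 2 alone on the KO side the differences were 0.82, 1.75, 1.64 and 2.34.

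The 8 groups of Acadm ran, from high to low, KO 72 h (10.47 ± 0.04, SD, n = 3 in each group), KO 24 h (10.16 ± 0.17), KO 4 h (9.46 ± 0.08), KO 0 h (9.15 ± 0.08), WT 24 h (8.35 ± 0.08), WT 0 h (8.32 ± 0.08), WT 72 h (8.08 ± 0.05) and WT 4 h (7.65 ± 0.05). The arrays of neighbouring groups in that order did not overlap, except WT 24 h and WT 0 h. In KO cells Acadm rose with stimulation, by 0.3 at 4 h (limma adjusted p = 0.00141), 1.01 at 24 h (9.14e-12) and 1.31 at 72 h (2.6e-14) over KO 0 h. The 4 h call ended with KO array 2 alone on the KO side (adjusted p = 0.158). In WT cells it fell by 0.67 at 4 h (adjusted p = 1.95e-08), was 0.04 at 24 h (0.75) and fell by 0.24 at 72 h (0.00878) over WT 0 h. The 72 h call ended without WT 0 h array 3 (-0.19, adjusted p = 0.0627). The responses of one genotype share its 0 h arrays. The KO response exceeded the WT response by 0.97, 0.97 and 1.55 at 4, 24 and 72 h (SE 0.10; limma adjusted p = 3.19e-06, 1.77e-06 and 1.12e-10).

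Acaa2, the thiolase that cleaves the shortened chain, was the other member higher in KO cells at all 4 times. Its level at 0 h was 8.11, 8.02 and 8.21 in KO cells, against 7.59, 7.68 and 7.71 in WT cells. At 4 h it was 7.22, 7.41 and 7.3 in KO cells, against 6.09, 6.36 and 6.43 in WT cells. The KO arrays lay above the WT arrays at both times. At 24 h the level was 7.48, 7.46 and 7.5 in KO cells, against 7.15, 6.86 and 6.82 in WT cells. At 72 h it was 7.74, 7.84 and 7.9 in KO cells, against 6.99, 7.1 and 6.77 in WT cells. Again no arrays overlapped. The differences were 0.45, 1.02, 0.53 and 0.88 (SE 0.1; limma adjusted p = 0.0114, 1.35e-07, 0.000773 and 7.37e-07). The 0 h call was lost without WT array 1 (0.42, adjusted p = 0.062), without KO array 3 (0.40, adjusted p = 0.0676) and without any array 3 (0.43, adjusted p = 0.117). With KO array 2 alone on the KO side the values were 0.36, 1.11, 0.51 and 0.88 (adjusted p = 0.583, 0.00132, 0.125 and 0.00479). Unlike Acadm, Acaa2 fell below its 0 h level in KO cells, by 0.80 at 4 h (adjusted p = 2.52e-07), 0.63 at 24 h (8.33e-06) and 0.28 at 72 h (0.0243). In WT cells it fell by 1.37, 0.72 and 0.71 at those times (adjusted p = 1.2e-11, 9.99e-07 and 1.21e-06). The KO fall at 72 h lost its call without KO 0 h array 1 (adjusted p = 0.0548) or array 3 (0.106), and without KO 72 h array 1 (0.102) or array 2 (0.0514). The difference between the responses did not pass the threshold at 4 h (0.56, SE 0.14, adjusted p = 0.0623; 0.0429 without WT 4 h array 3, 0.0372 without WT 24 h array 1), 24 h (0.08, 0.834) or 72 h (0.42, 0.11).

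**Figure D1:**
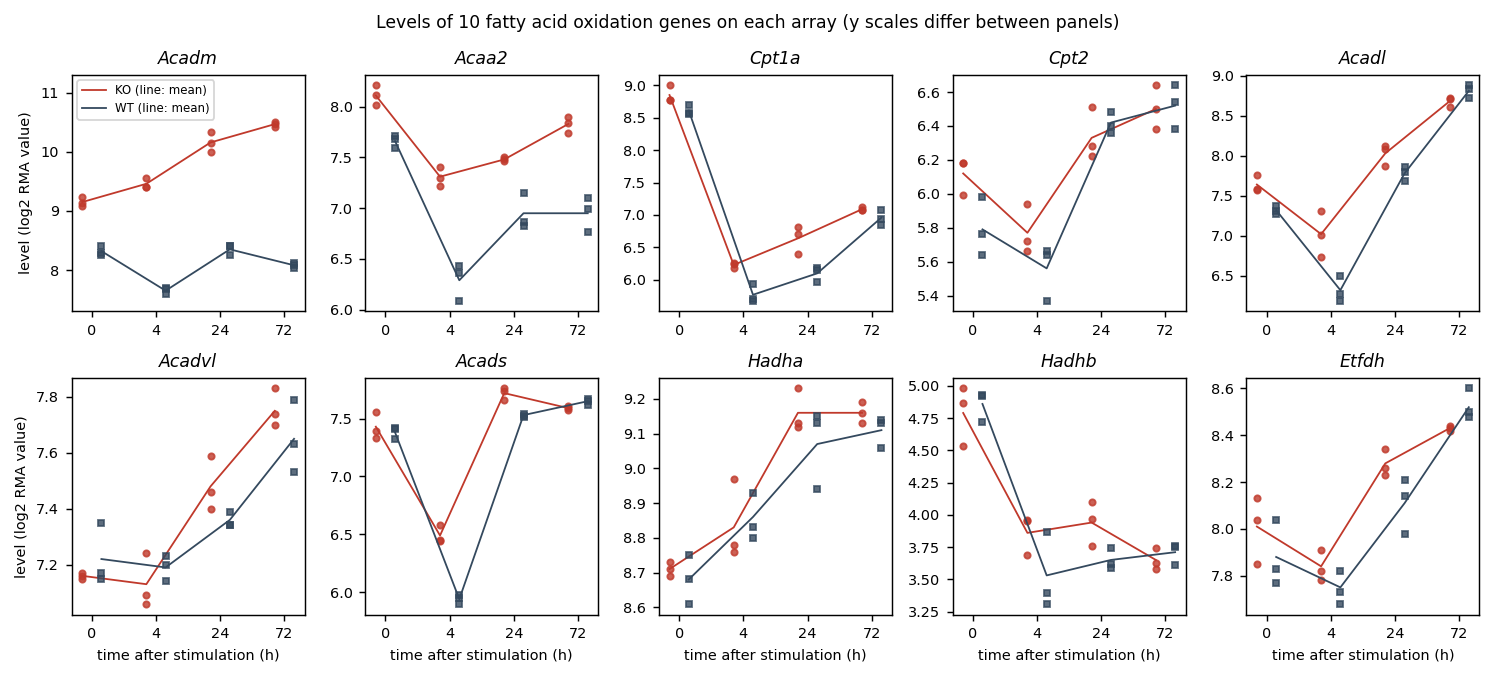
Level of each of the 10 genes (log2 RMA value, y axis) against time after stimulation (h, x axis, evenly spaced), with 1 point per array and a line through the mean of 3 arrays (circles, KO; squares, WT). KO and WT arrays of Acadm were apart at every time, whereas those of Hadha and Acadvl lay together at most times.

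Of the carnitine transferases, Cpt1a, which controls entry, was higher in KO cells at 4 and 24 h, and Cpt2 did not pass the threshold at any time. Cpt1a at 4 h was 6.26, 6.18 and 6.24 in KO cells, against 5.68, 5.93 and 5.71 in WT cells, a difference of 0.45 (SE 0.1, limma adjusted p = 0.00842). At 24 h it was 6.71, 6.4 and 6.82 in KO cells, against 6.15, 5.96 and 6.19 in WT cells, a difference of 0.54 (adjusted p = 0.000765). The KO arrays lay above the WT arrays at both times. At 0 h the level was 8.77, 8.78 and 9.0 in KO cells, against 8.55, 8.57 and 8.7 in WT cells (0.24, adjusted p = 0.294). At 72 h it was 7.12, 7.07 and 7.08 in KO cells, against 7.08, 6.85 and 6.94 in WT cells (0.13, adjusted p = 0.659), where the arrays overlapped. The 4 h call of Cpt1a ended without WT 4 h array 1 (0.40, adjusted p = 0.0504), with quantile normalization run again (0.29, 0.101), with array weights (0.40, 0.0575), when the groups compared were fitted by themselves (0.45, 0.121) and without any array 3 (0.41, 0.11). With KO array 2 alone on the KO side both calls ended (0.40 at 4 h and 0.30 at 24 h, adjusted p = 0.327 and 0.371), as did that of the average over the 4 times (0.25, adjusted p = 0.084).

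Cpt1a had the largest fall of the 10 genes after stimulation. At 4 h it fell by 2.63 in KO and by 2.83 in WT cells, to 0.162 of the 0 h level in KO and 0.14 in WT cells. It was still lower by 2.21 in KO and 2.51 in WT cells at 24 h and by 1.76 in KO and 1.65 in WT cells at 72 h (limma adjusted p from 1.69e-17 to 2.31e-13). The KO and WT responses of Cpt1a differed by 0.21, 0.3 and -0.11 (SE 0.14; adjusted p = 0.64, 0.258 and 0.845). Cpt2 had levels of 5.99 to 6.18 in KO and 5.64 to 5.98 in WT arrays at 0 h, and of 6.38 to 6.64 in KO and 6.38 to 6.64 in WT arrays at 72 h. Its differences were 0.32, 0.22, -0.08 and -0.02 at the 4 times, with adjusted p from 0.177 to 0.982. The 95% intervals reached from -0.32 at 24 h to 0.56 at 0 h.

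Among the dehydrogenases, Acadl and Acads joined Acadm at 4 h and at no other time, and Acadvl did not pass the threshold. Acadl, the long-chain enzyme, was at 7.31, 7.01 and 6.73 in KO cells at 4 h, against 6.5, 6.27 and 6.19 in WT cells (0.7, SE 0.11, limma adjusted p = 0.000154). Acads, the short-chain enzyme, was at 6.45, 6.58 and 6.44 in KO cells, against 5.95, 5.9 and 5.98 in WT cells (0.55, SE 0.07, adjusted p = 1.3e-05). All KO arrays lay above all WT arrays for both genes. At 0 h Acadl was at 7.57, 7.76 and 7.58 in KO cells, against 7.27, 7.31 and 7.37 in WT cells (0.32, adjusted p = 0.156), and at 72 h at 8.61, 8.71 and 8.72 in KO cells, against 8.88, 8.83 and 8.72 in WT cells (-0.13, adjusted p = 0.722). For Acads the values at 0 h were 7.33, 7.56 and 7.39 in KO cells, against 7.42, 7.32 and 7.41 in WT cells (0.04, adjusted p = 0.885), and at 72 h 7.57, 7.59 and 7.61 in KO cells, against 7.62, 7.67 and 7.65 in WT cells (-0.06, adjusted p = 0.857). At 24 h the differences were 0.24 for Acadl (adjusted p = 0.166) and 0.2 for Acads (0.0811). They passed with quantile normalization run again (0.34, adjusted p = 0.0461 for Acadl; 0.29, 0.0092 for Acads), and that of Acads also with low genes left out (adjusted p = 0.0446) or array weights (0.048). Acadvl, the very-long-chain enzyme, lay between 7.06 and 7.83 on all 24 arrays, with differences of -0.06, -0.06, 0.13 and 0.1 (SE 0.08; adjusted p from 0.37 to 0.837). Its 95% intervals lay within -0.23 and 0.30 at every time.

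Acads and Acadl dipped at 4 h in both genotypes and were at or above their 0 h level later. Acads fell by 0.94 in KO and by 1.44 in WT cells at 4 h (limma adjusted p = 3.69e-11 and 6.43e-15), and the KO response was 0.5 above the WT response (SE 0.1, adjusted p = 0.0122). That difference lost its call with quantile normalization run again (0.41, adjusted p = 0.062), when the groups compared were fitted by themselves (0.161), without any array 3 (0.176) and with KO array 2 alone on the KO side (0.479). Acadl fell by 0.62 in KO and by 1.0 in WT cells at 4 h (adjusted p = 4.25e-05 and 1.83e-08) and rose by 1.04 in KO and 1.49 in WT cells at 72 h (6.32e-09 and 6.69e-12). The response of Acadl differed between genotypes by 0.38 at 4 h and -0.45 at 72 h without passing the threshold (adjusted p = 0.336 and 0.124; 0.016 at 72 h when the groups compared were fitted by themselves). Acadvl was higher than at 0 h in KO cells at 24 h (0.32, adjusted p = 0.00194; not past the threshold without any array 3, 0.27 and 0.0603, nor with KO array 2 alone on the KO side, 0.30 and 0.201) and in both genotypes at 72 h (0.59 in KO and 0.42 in WT cells, adjusted p = 6.14e-07 and 7.54e-05).

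**Figure D2:**
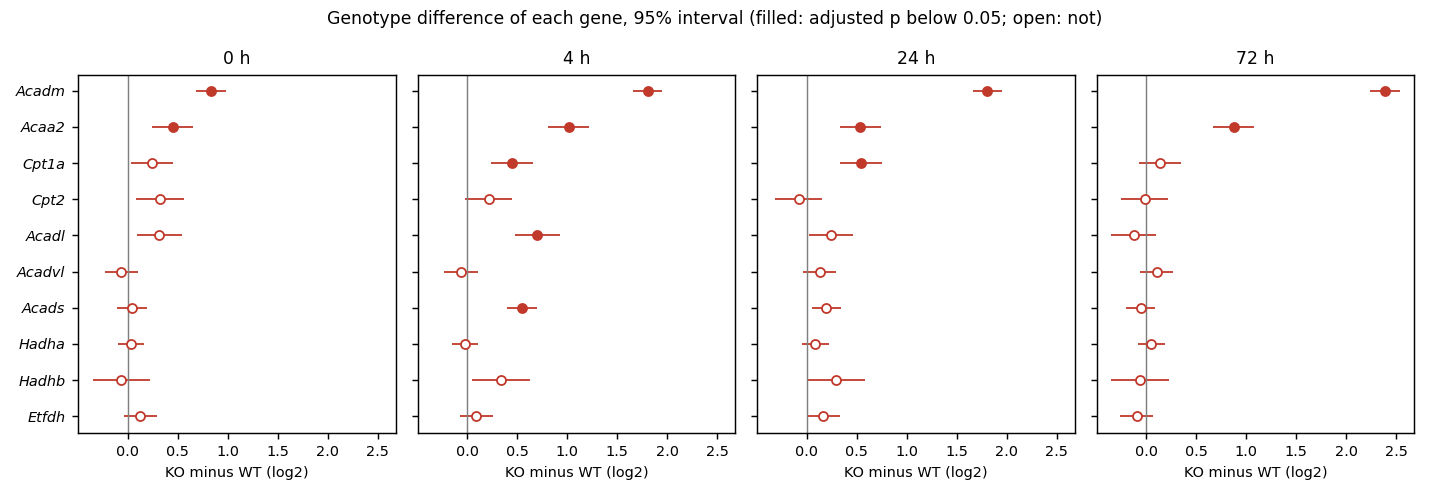
KO minus WT difference (log2, x axis) of the 10 genes (rows) at 0, 4, 24 and 72 h, with the 95% interval of limma's fit (filled, adjusted p below 0.05; open, not). Acadm and Acaa2 were filled in all 4 panels, Cpt1a at 4 and 24 h, and Acadl and Acads at 4 h.

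The trifunctional protein genes Hadha and Hadhb, and Etfdh, did not pass the threshold between genotypes at any time. Hadha, the subunit with hydratase and hydroxyacyl dehydrogenase activity, was at 8.69 to 8.73 in KO and 8.61 to 8.75 in WT arrays at 0 h, and at 9.13 to 9.19 in KO and 9.06 to 9.14 in WT arrays at 72 h. Its differences of 0.03, -0.02, 0.09 and 0.05 had 95% intervals within -0.16 and 0.22. Etfdh, which passes the electrons of the acyl-CoA dehydrogenases to ubiquinone, differed by 0.12, 0.09, 0.17 and -0.09 (SE 0.08; limma adjusted p from 0.218 to 0.722), and its 24 h value passed with quantile normalization run again (0.26, adjusted p = 0.0402). Hadhb, the thiolase subunit, had levels between 3.31 and 4.98 on all arrays, close to the array medians, where RMA compresses differences, and no detection calls were used. It differed by -0.06, 0.34, 0.29 and -0.06 (SE 0.14; adjusted p from 0.21 to 0.943). The 4 h difference of Hadhb passed without WT 4 h array 2 (0.51, adjusted p = 0.0317). Although Hadha and Hadhb start 273 bases apart, their values moved apart after stimulation: Hadha rose by 0.45 in KO and 0.43 in WT cells at 72 h (adjusted p = 1.8e-06 and 3.16e-06), whereas Hadhb fell by 1.14 in KO and by 1.15 in WT cells (1.17e-07 and 1.09e-07).

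As a group, 2 of the 10 genes were called higher in KO than in WT cells at 0 h (1.76% of all genes were called higher there), 5 at 4 h (3.3%), 3 at 24 h (3.9%) and 2 at 72 h (2.56%). None of the 10 (0) was called lower in KO than in WT cells at any time, where 0.577%, 0.834%, 7.38% and 3.78% of all genes were called lower. The median difference of the 10 was 0.18, 0.40, 0.22 and 0.02 at the 4 times, and 0.13, 0.34, 0.20 and -0.02 without Acadm, while the median of all genes was 0.00, 0.00, -0.05 and 0.01. At 72 h the group centred near 0 with Acadm and Acaa2 far above it, and 5 of the 10 differences were positive. KO and WT arrays did not overlap, with KO higher, for 5, 5, 8 and 2 members at 0, 4, 24 and 72 h (9.83%, 9.31%, 8.37% and 12.5% of all genes). With KO lower, 2 members (Acads and Etfdh) did not overlap at 72 h (12.0% of all genes). Acadm and Acaa2 were among the 45 genes (0.203%) called higher in KO at all 4 times. Averaged over the 4 times, all 10 differences were positive and 5 passed the threshold (5.46% of all genes were called higher): Acadm 1.71, Acaa2 0.72, Cpt1a 0.34, Acadl 0.28 and Acads 0.18 (limma adjusted p = 5.81e-22, 7.76e-11, 3.19e-05, 0.000734 and 0.000951). On the same average 11 of 13 B cell, 6 of 19 myeloid and 7 of 10 regulatory T cell markers were higher in KO cells, and their part in the average was not tested. The members were chosen with earlier results of these data known, so these counts describe them and are no test of the pathway.

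Across time, 6 of the 10 genes fell at 4 h in each genotype, and the members went separate ways later. At 4 h, 6 of 10 fell and 1 rose in KO cells (16.0% and 15.1% of all genes) and likewise 6 fell and 1 rose in WT cells (17.8% and 16.8%), with a median of -0.48 in KO and -0.83 in WT cells. The 6 were Acaa2, Cpt1a, Acadl, Acads and Hadhb in both genotypes, with Cpt2 in KO and Acadm in WT cells as the sixth, and the riser was Acadm in KO and Hadha in WT cells. At 24 h, 6 rose and 3 fell in KO cells (17.6% and 16.5% of all genes), against 4 and 3 in WT cells (23.2% and 16.5%). At 72 h, 6 rose and 3 fell in KO cells (21.1% and 18.6%), against 6 and 4 in WT cells (22.2% and 18.3%). Cpt1a, Acaa2 and Hadhb were the members still lower in both genotypes at 24 and 72 h. Calls near the threshold hung on single arrays: Cpt2 in KO cells at 4 h (-0.35, limma adjusted p = 0.021) ended without KO 0 h array 2 (0.0743) or 3 (0.0775) or KO 4 h array 2 (0.0734) or 3 (0.102). Its call at 72 h (0.39) ended without KO 72 h array 2 (0.0526). Hadha in WT cells at 4 h (0.18, adjusted p = 0.033) ended without WT 0 h array 2 (0.0694) or 3 (0.145) or WT 4 h array 1 (0.0524) or 2 (0.147). Etfdh in WT cells at 24 h (0.23, 0.0235) ended without WT 0 h array 2 (0.13) or 3 (0.082) or WT 24 h array 2 (0.0703) or 3 (0.118). Its call in KO cells at 24 h (0.27) ended without KO 0 h array 2 (0.095). Leaving out that array brought Etfdh at 4 h (-0.25, 0.0255) and Acads at 72 h (0.23, 0.0215) past the threshold in KO cells. The KO and WT responses differed past the threshold for 2 of 10 genes at 4 h (Acadm and Acads; 0.446% of all genes were called higher), and for Acadm alone at 24 h (1.65%) and 72 h (1.06%).

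**Figure D3:**
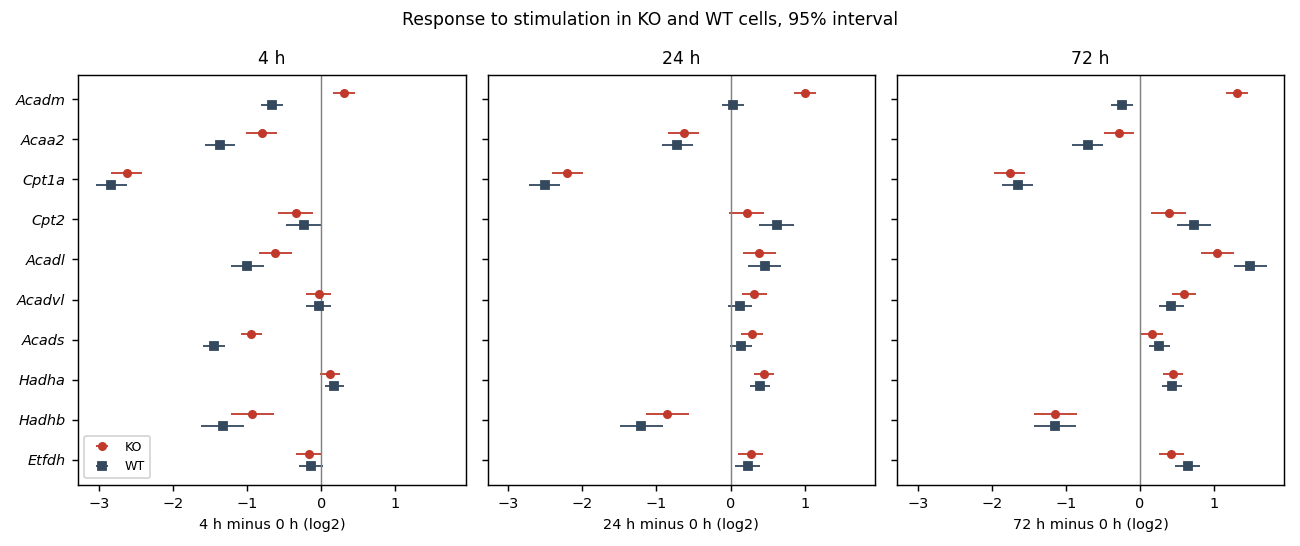
Change from 0 h to 4, 24 and 72 h (log2, x axis) of the 10 genes (rows) with the 95% interval, in KO (circles) and WT cells (squares). Acadm lay right of 0 in KO cells at all 3 times and left of or at 0 in WT cells, whereas Cpt1a lay far to the left in both.

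The remaining machinery of fatty acid oxidation was read through 98 further genes on 5 lists, which were chosen with earlier results known. Of these, 4 rose and 0 fell in KO cells at 0 h, 7 rose and 1 fell at 4 h, 8 rose and 11 fell at 24 h, and 4 rose and 3 fell at 72 h, with medians of 0.03, 0.07, 0.01 and -0.01. Of all genes 1.76%, 3.3%, 3.9% and 2.56% were called higher and 0.577%, 0.834%, 7.38% and 3.78% lower at these times. The count at 0 h was 2 in place of 4 without WT 0 h array 3, KO 0 h array 1 or KO 0 h array 2. The count at 4 h was 3 in place of 8 without KO 4 h array 1 and 5 without KO 4 h array 2, and the count at 24 h was 11 in place of 19 without KO 24 h array 1. Of the other mitochondrial beta-oxidation genes (22 measured), 1 was higher in KO cells at 0 h, Acad9 (0.39, limma adjusted p = 0.0474). At 4 h 3 of them were higher in KO cells, Acad8 (0.55, 0.0457), Acadsb (0.43, 0.033) and the dienoyl-CoA isomerase gene Ech1 (0.34, 0.0142). Ech1 was higher in KO cells at 24 h too (0.40, 0.0016), and 1 gene was lower at 72 h, the enoyl-CoA isomerase gene Eci2 (-0.45, 0.01). Acad8 and Acadsb encode dehydrogenases of branched-chain amino acid breakdown.

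The peroxisomal list held a gene that, like Acadm and Acaa2, was called higher in KO cells at all 4 times. Hsd17b4, the multifunctional enzyme of peroxisomal beta-oxidation, was at 7.97 ± 0.09 in KO and 7.10 ± 0.11 in WT cells at 0 h (SD, n = 3). It was higher in KO than in WT cells by 0.86, 1.01, 0.31 and 0.38 at 0, 4, 24 and 72 h (SE 0.09, limma adjusted p = 1.64e-07, 1.29e-08, 0.0189 and 0.00496). Of 15 peroxisomal genes measured it was the 1 called at 0 h and at 72 h. In KO cells Acox3 was higher at 4 h (0.46, adjusted p = 0.0181), Hacl1 was higher at 24 h (0.56, 0.00251) and the transporter gene Abcd3 was lower at 24 h (-0.70, 6.17e-05).

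Of the genes of fatty acid activation and import (21 measured), 1 was higher in KO cells at 0 h, Acot7 (0.46, limma adjusted p = 0.002), and 1 at 4 h, the carnitine octanoyltransferase gene Crot (0.43, 0.00421). At 24 h 2 were higher and 4 lower in KO cells, among them the fatty acid binding protein gene Fabp5 (-0.83, 0.0012) and the synthetase genes Acss1 (0.58, 0.0308) and Acsl6 (-0.53, 0.00458). At 72 h Acsl6 (-0.78, adjusted p = 7.68e-05) and Crot (-0.76, 1.21e-06) were lower, so Crot was higher in KO cells at 4 h and 24 h (0.46 at 24 h, 0.00122) and lower at 72 h. Of 31 regulators measured, 0 passed at 0 h. At 4 h the lysosomal lipase gene Lipa was higher (0.58, adjusted p = 0.00777) and the synthase gene Fasn lower (-0.31, 0.0381) in KO cells. At 24 h 3 regulators were higher and 5 lower in KO cells, led by Rxra, the partner of PPAR (-0.90, 4.08e-05), the phosphatidate phosphatase gene Lpin1 (0.63, 0.00151) and Foxo1 (0.51, 6.85e-05). At 72 h Fasn (0.66, 4.59e-06), the corepressor gene Nrip1 (0.64, 2.53e-05) and Lpin1 (0.57, 0.0046) were higher in KO cells. Of 9 other genes known as PPAR targets, Angptl4 alone passed, higher in KO cells at 0 h (0.49, adjusted p = 0.0296) and lower at 24 h (-0.44, 0.0189).

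**Figure D4:**
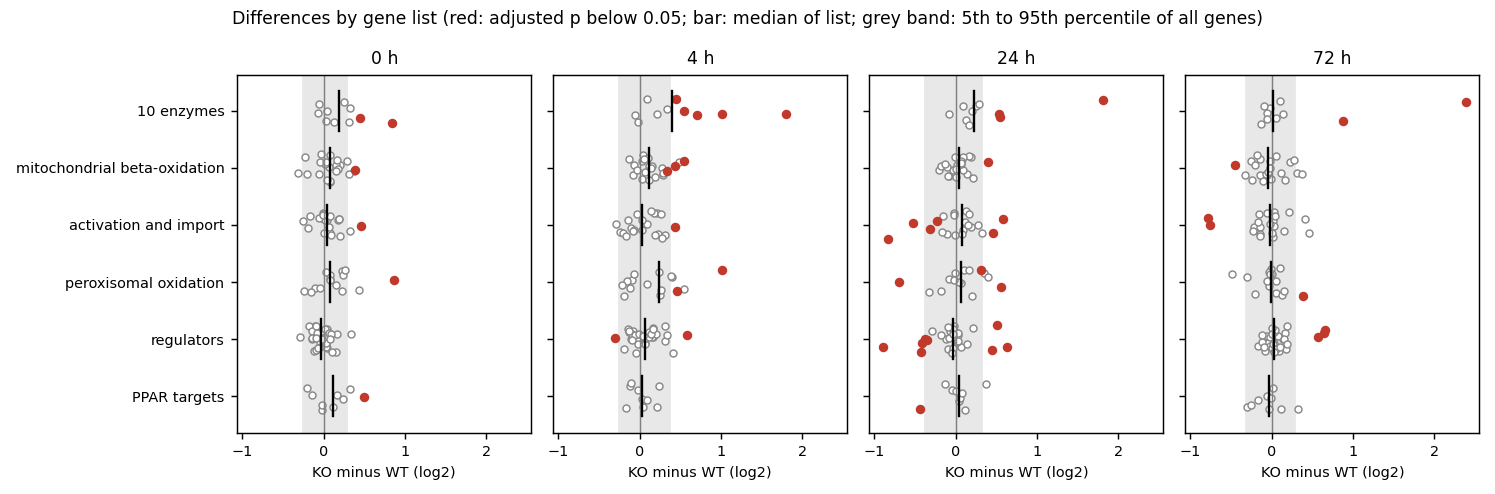
KO minus WT difference (log2, x axis) at 0, 4, 24 and 72 h of the 10 enzymes and of 98 further genes on 5 lists (rows, 1 point per gene, spread vertically at random; red, adjusted p below 0.05), with the median of each list (bar) and the 5th to 95th percentile of all 22180 genes (grey band). Acadm lay far right of every listed gene at 4, 24 and 72 h.

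Acadm was set against its neighbours in gene order on chromosome 3. The nearest gene on 1 side, Rabggtb, which encodes a subunit of the Rab prenyltransferase, was higher in KO cells at 0 h (6.93 in KO and 6.49 in WT cells; 0.44, SE 0.10, limma adjusted p = 0.0114) and at 72 h (7.91 in KO and 7.32 in WT cells; 0.58, adjusted p = 0.000201). It differed by 0.08 and -0.03 at 4 and 24 h (adjusted p = 0.751 and 0.923). The next genes on that side, Msh4 and Asb17os, and those on the other side, Slc44a5, Lhx8 and AI606473, had mean levels between 2.27 and 4.06 and did not pass the threshold at any time. Over the 56 neighbours of all 10 members (3 on each side), 2, 2, 10 and 4 were called at 0, 4, 24 and 72 h, where 2.34%, 4.13%, 11.3% and 6.33% of all genes were. The 56 include the members Hadha and Hadhb, which neighbour each other and were not called.

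**Figure D5:**
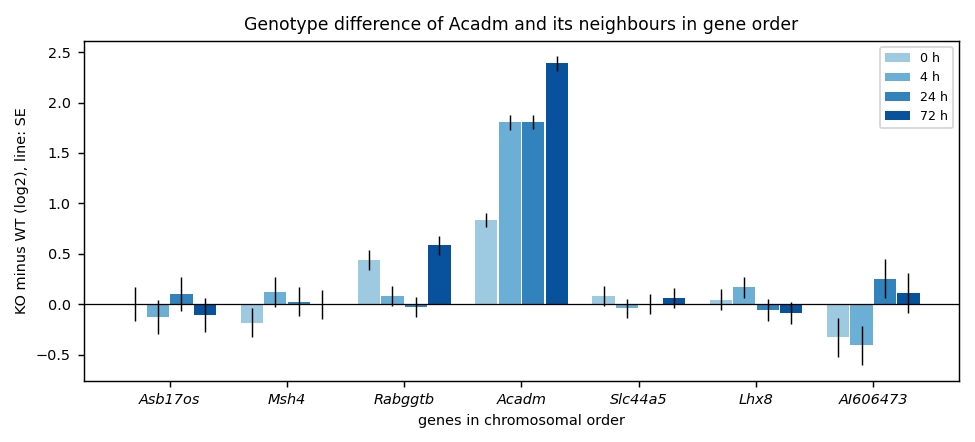
KO minus WT difference (log2, y axis; bars from 0, lines show the SE) at 0, 4, 24 and 72 h of Acadm and the 3 nearest genes with a probe set on each side, in chromosomal order (x axis). Acadm stood at 0.84 to 2.39, and among its neighbours Rabggtb reached 0.58.

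The 5 named genes whose levels followed Acadm most closely over the 24 arrays were Ly6k (Pearson r = 0.899), the mannosidase gene Man1a (0.884), the sulfotransferase gene Chst3 (0.882), Foxp3, the transcription factor of regulatory T cells (0.86), and the glutathione transferase gene Gstt1 (0.856). The arrays share genotype and time and were pooled over both genotypes, so r describes likeness only. Man1a was higher in KO cells by 1.11, 1.51, 1.08 and 0.96 at the 4 times, and Foxp3 by 0.76, 0.93, 1.63 and 2.49 (limma adjusted p = 0.113, 0.024, 5.53e-05 and 5.3e-08). Foxp3 was at 7.43, 6.96, 8.38 and 7.93 in KO cells, against 6.66, 6.03, 6.76 and 5.44 in WT cells at those times, and the part of regulatory T cells in the Acadm result was not tested. Among the other members r with Acadm was highest for Acaa2 (0.661) and lowest for Hadhb (0.014) over the 24 arrays. The order differed within a genotype. Over the 12 KO arrays r was highest for Hadha (0.939), -0.193 for Acaa2 and lowest for Hadhb (-0.724), and over the 12 WT arrays it was highest for Acads (0.862), 0.813 for Acaa2 and lowest for Hadha (0.0188).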

How the data were processed

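The authors deposited log2 values for 41345 probe sets on 24 arrays, for which the submitters' processing notes name RMA, oligo and R 3.1.0. RMA subtracts background, forces 1 distribution on the arrays and combines probes, so a shift common to every gene is lost and low signals are compressed. The sources used here give no filter, batch or scan date. Precision is limited by having 3 arrays in a group. Of the probe sets, 23521 have 1 gene symbol, 1814 several and 16010 none listed. By Entrez ID 23328 were matched to RefSeq (GRCm38.p6) for current names. Where a gene had several probe sets, that of the highest mean over all arrays stood for it, leaving 22180 genes.

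With limma 3.58.1 in R 4.3.3, 8 group means were fitted to all arrays with eBayes and a mean-variance trend (24.8 degrees of freedom). Contrasts were KO over WT at each time and on average, each time over 0 h, and the difference of the responses. Tests are two-sided, with Benjamini-Hochberg adjustment over all genes. The procedure was tested on simulated data. The members, lists and rules were chosen with earlier results of these data known. Members are named throughout, and from each list up to 3 genes per KO and WT comparison with the largest absolute change past the threshold. The alternatives are given in the closing section.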

Additional observations from a re-analysis of the deposited data

Results flagged for a closer look

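The genotype difference of Acadm was not the same at all times. It was larger after stimulation than at 0 h by 0.97 at 4 h, 0.97 at 24 h and 1.55 at 72 h on the log2 scale (SE 0.10, limma's interaction contrast, adjusted p = 3.19e-06, 1.77e-06 and 1.12e-10), with Acadm higher on all 3 KO arrays than on all 3 WT arrays at each time. For Acads the difference was larger at 4 h than at 0 h by 0.50 (SE 0.10, adjusted p = 0.0122), over alternatives with adjusted p between 0.00508 and 0.479.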

How the results depend on the processing

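The changes of the 10 enzymes and the counts of called genes were recomputed under 13 other settings and with each of the 24 arrays left out, and 0 of 5170 values for the enzymes reversed a call. Many of these values could not reverse. Several settings alter the test and not the change, and leaving out an array outside a comparison keeps its change as it is. Single list genes, neighbours, markers and correlations were not recomputed. Of 70 called changes of the 10 enzymes, 40 kept their call throughout and 30 lost it under some setting, while 24 uncalled changes turned sign. Counts below are of enzymes, of the 98 further oxidation genes and of all genes, called between KO and WT unless a response is named. Leaving out genes below the 40th percentile gave 13 further genes at 4 h. Quantile normalization run again gave 5 further genes at 4 h, 6 enzymes at 24 h, and 1 and 2 enzymes whose responses differed at 4 and 72 h. Array weights gave, at 72 h, 14 further genes, 2249 of all genes and 2 enzymes whose responses differed. Fits of only the groups compared gave 1 further gene and 276 of all genes at 0 h, 1 and 309 at 4 h, 12 further genes at 72 h, and 1 and 2 differing responses at 4 and 72 h. They give no value for the average over the times, which uses all arrays. Without any array 3 there were 1 enzyme, 2 further genes and 284 of all genes at 0 h, 562 of all genes at 4 h, 707 at 72 h and 1 differing response at 4 h. With KO array 2 alone on the KO side, assumed to vary like the other groups, there was 1 enzyme at 0 h and 1 at 24 h. Further genes numbered 1, 2, 3 and 4 and all genes 133, 238, 472 and 481 at the 4 times, with 4 and 3 enzymes responding in KO cells at 4 and 24 h and 1 differing response at 4 h. Requiring an absolute change of at least 0.5 left 1 enzyme at 0 h and 2 on average, 1, 3 and 8 further genes at 0, 4 and 24 h, and 331, 489, 830 and 721 of all genes, with 4 and 5 enzymes responding in KO and 4 and 6 in WT cells at 24 and 72 h.

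Leaving out 1 array gave 1 to 2, 4 to 6, 3 to 3 and 2 to 2 enzymes at the 4 times and 5 to 5 on average. It gave 2 to 6, 3 to 10, 11 to 20 and 6 to 9 further genes, and 314 to 576, 601 to 1063, 1269 to 2706 and 988 to 1484 of all genes. Of all genes, the count moved by over 1.5 times without WT 0 h array 2 (314), KO 0 h array 1 (333), KO 4 h array 1 (601) or KO 24 h array 1 (1269). Enzymes responding numbered 6 to 7, 8 to 9 and 7 to 10 in KO and 6 to 7, 6 to 7 and 9 to 10 in WT cells, and differing responses 2 to 3, 1 to 1 and 1 to 1.

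The labels do not say that an array number marks a shared animal. Deviations of KO and WT arrays with the same number and time correlated at 0.0321 to 0.172, all above 0 but 6 of 12 over 0.1, so the numbers were not used as pairs, although arrays 3 carry Y-linked RNA in all 8 groups. With the replicate block 2, 5, 3 and 2 enzymes, 3, 10, 19 and 8 further genes and 567, 966, 2588 and 1426 of all genes were called. There are 3 arrays in a group and no detection calls, so small changes of dim genes such as Hadhb cannot be resolved.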

Other observations

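Among the neighbours in gene order of the other members, Myo5b, a myosin gene 3 places from Acaa2, was called higher in KO cells at all 4 times, at 4.43, 4.36, 4.73 and 4.05 in KO cells, against 3.41, 3.55, 3.36 and 3.32 in WT cells (limma adjusted p = 0.00294, 0.0157, 3.48e-05 and 0.0205). Lipg, the endothelial lipase gene next to Acaa2, was lower in KO cells at 24 h, at 3.65 against 4.49 in WT cells (-0.84, adjusted p = 0.000466). Near Acads, Mlec, which encodes the lectin malectin, was higher in KO than in WT cells by 0.43 at 4 h and 0.38 at 72 h (adjusted p = 0.000507 and 0.00125). The interferon-inducible gene Oasl1 was lower in KO cells at 72 h, at 5.36 against 7.97 in WT cells (-2.61, adjusted p = 5.99e-09).

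The other neighbours past the threshold were called at 24 h alone. Near Acaa2, Scarna17 (0.45, limma adjusted p = 0.0437) and Snord58b (0.34, 0.0252) were higher in KO than in WT cells and the ribosomal protein gene Rpl17 was lower (-0.39, 0.0271). Near Hadhb, Drc1 was higher in KO cells (0.67, 0.0269), and near Cpt2 the receptor gene Lrp8 was lower (-0.48, 0.0109). Near Etfdh, Ppid (-0.40, 0.00362), Fnip2 (-0.55, 0.0191) and 4930579G24Rik (-0.40, 0.0254) were lower in KO cells.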
